A study of Mus musculus with 24 samples.

Results

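Neuronal progenitors labelled as knockouts of the repressor REST were compared with wildtype progenitors on 6 arrays, 3 labelled RESTko and 3 labelled RESTwt, out of 24 arrays in the series. The progenitors (NP) were derived in culture from mouse embryonic stem (ES) cells of the strain Black Agouti 129 by the published differentiation protocol of Bibel and colleagues, in which aggregates of ES cells are driven towards a neural fate. The 6 arrays were chosen by their titles, and total RNA of each was hybridised to a whole-transcript Affymetrix array. The other arrays used here are 3 RESTko and 3 RESTwt ES arrays of the same strain and 3 RESTko and 3 RESThet arrays of terminal neurons (TN). The strain of the TN arrays is not given here, and the series also holds arrays of mixed 129Sv-C57Bl/6 cells. Titles of the TN arrays open with another number than those of the NP and ES arrays. TN values are compared in 1 place only, but these arrays also enter the fit that gives the spread. The labels give neither the deleted allele nor the number of clones behind each genotype, and whether a group's 3 arrays stand for separate cultures is not stated either. The p-values below therefore measure only the spread between arrays, which the main fit pools over all 18 arrays of the platform and not over the 6 NP arrays alone. Values are log2 signals as deposited, given for arrays a, b and c of a group in that order, and differences are RESTko minus RESTwt on the log2 scale with their standard error (SE). A gene was called where its p-value from limma, adjusted over all 19938 genes, was below 0.05.

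REST is a zinc finger protein that binds a long DNA element, RE1, beside many neuronal genes and recruits histone deacetylases and demethylases that keep those genes silent in cells other than neurons. In ES cells and neural progenitors it is present, and its level falls as progenitors leave the cell cycle and become neurons. Genes for synaptic vesicles, secretory granules, ion channels and the axonal cytoskeleton are among its best known targets.

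Rest itself did not separate the progenitor groups. Its 1 probe set read 7.43, 7.40 and 7.57 in the arrays labelled RESTko, against 7.48, 7.51 and 7.45 in those labelled RESTwt (difference -0.01, SE 0.07, adjusted p = 0.958). The groups overlapped. Neither the deleted part of the gene nor the part these probes read is given, so the value checks neither label. The direction of every difference below rests on the labels. Precision is set by the number of arrays, and the SE had a median of 0.10 over all genes. Arrays of 1 group correlated across genes with r of 0.9953 to 0.9971 in RESTko and 0.9925 to 0.9955 in RESTwt progenitors, and arrays of different groups with 0.9848 to 0.9945. Of 19 markers of neural progenitors 17 had a positive difference, but only Cdh2 (0.36, adjusted p = 0.0153, and 0.0901 without RESTwt array b), the neural cadherin, was called. The mean over the list was 8.75 to 8.82 in RESTko arrays and 8.41 to 8.70 in RESTwt arrays. Markers of astrocytes, of the oligodendrocyte lineage and of blood, with 8 measured genes each, gave no call. The astrocyte markers Gfap and Aqp4 lay near the bottom of the scale in both groups, but gene means over the astrocyte list ran from 3.07 to 9.44.

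In all, 862 genes were higher in RESTko progenitors (4.32% of those tested) and 740 were lower (3.71%), while 3841 had an unadjusted p below 0.05. The calls were spread unevenly over the genome. On the autosomes other than chromosome 8, 828 of 18148 genes were higher (4.56%) and 425 lower (2.34%), so the higher calls were 66.1% of the calls there. With each array centred on the median of these autosomes the counts were 622 higher and 515 lower, or 54.7%. On chromosome 8 only 9 of 955 genes were higher (0.942%) and 295 were lower (30.9%). Chromosome X had 24 higher and 20 lower calls, and none of the 9 measured genes on Y was called. Changes of at least 1 on the log2 scale were fewer: 90 genes higher and 32 lower off chromosome 8. The number of calls depended on single arrays, falling to 872 without RESTko array a and to 906 without RESTwt array b.

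**Figure D1:**
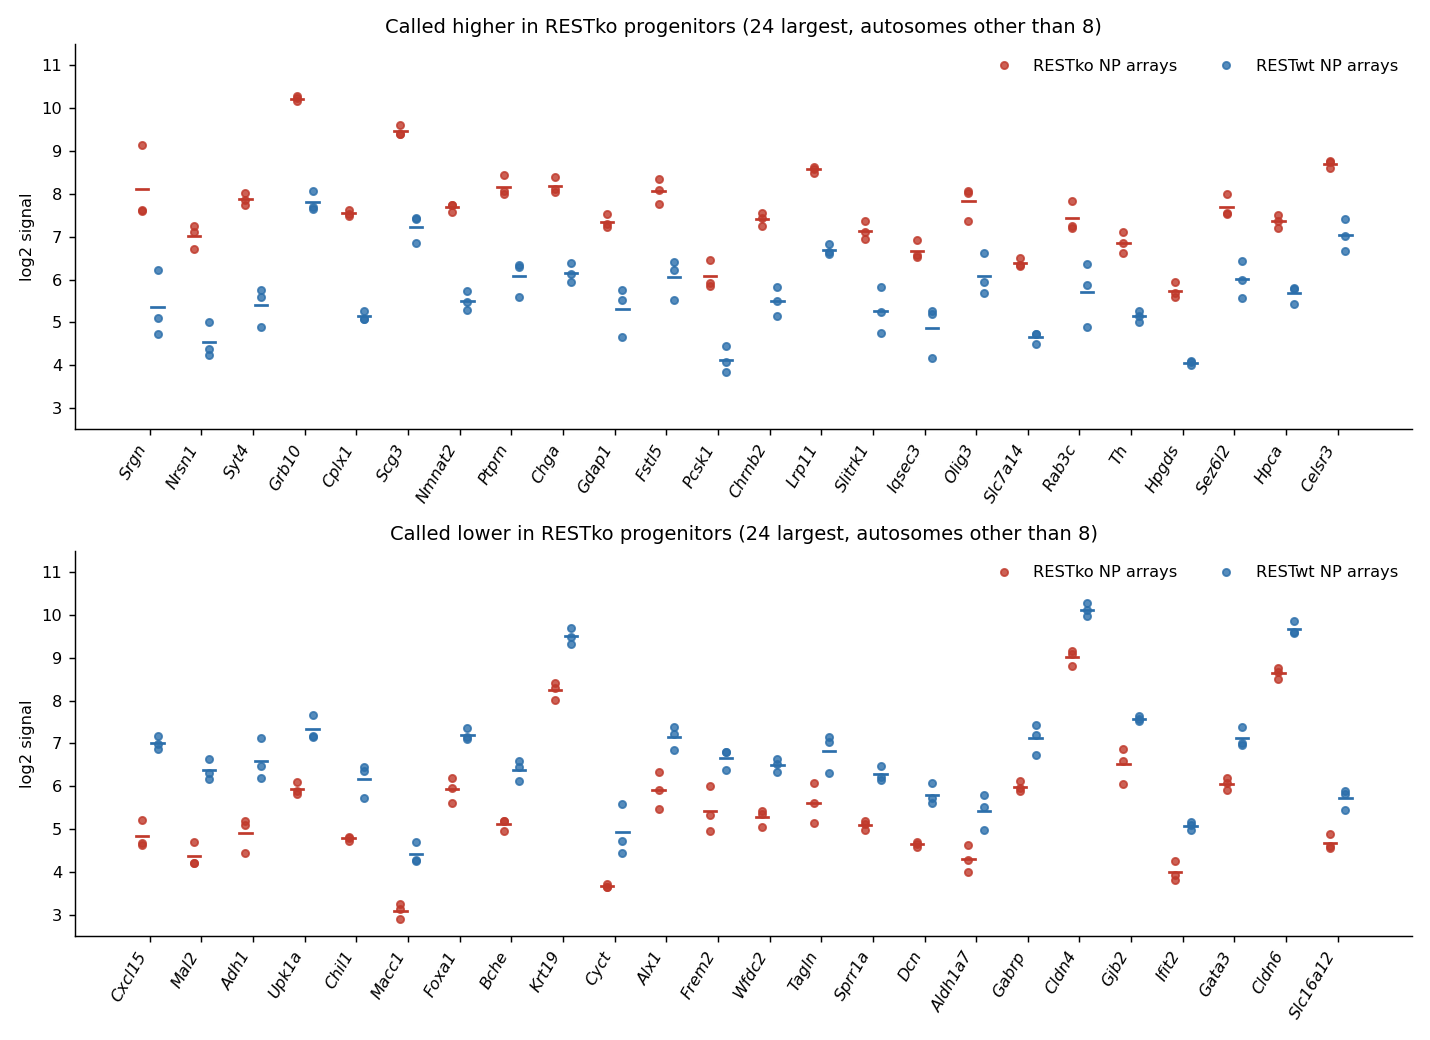
Log2 signal of each NP array for the top 24 called genes in each direction on autosomes other than chromosome 8 (points are arrays, RESTko left of RESTwt for each gene, and short lines are group means of 3 arrays). The genes were picked because the groups do not overlap, and Srgn, with a RESTko array at 9.13 and a RESTwt array at 6.23, has the widest spread within groups of the upper panel.

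Genes of regulated secretion made up much of the top of the list off chromosome 8. Of 17 measured genes of dense-core granules, the vesicles that store peptides and amines, 10 were higher in RESTko progenitors and 0 lower, with a median difference of 1.11 over the list against 0.01 over all genes. Chga, the granule core protein chromogranin A, read 8.40, 8.05 and 8.12 in RESTko arrays, against 6.38, 5.95 and 6.12 in RESTwt arrays (difference 2.04, SE 0.13, adjusted p = 3.81e-08). Its sister gene Chgb read 7.61, 7.41 and 7.46 in RESTko arrays, against 6.41, 5.45 and 5.87 in RESTwt arrays (1.59, adjusted p = 1.68e-05). All RESTko arrays stood above all RESTwt arrays for both. Scg3, which holds chromogranin at the granule membrane, differed by 2.24, Ptprn, a transmembrane granule protein related to phosphatases, by 2.08, and its relative Ptprn2 by 1.16. Pcsk1, the convertase that cuts prohormones in granules, read 5.85, 5.93 and 6.45 in RESTko arrays, against 4.46, 4.07 and 3.85 in RESTwt arrays (1.95, SE 0.18, adjusted p = 2.65e-06). Srgn, the proteoglycan serglycin, had the largest difference among called genes, 2.77, and also an SE of 0.40.

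Genes for the neuropeptides that such granules store, and for the making and uptake of transmitters, were mostly not called. Of 19 neuropeptide genes 0 were higher and 1, Penk, the precursor of enkephalins, was lower (-0.54, adjusted p = 0.0205, and 0.0869 without RESTko array a), with a list median of 0.03. The lower share was 5.26%, against 3.71% over all genes. Of 20 transmitter enzymes and transporters only Th, tyrosine hydroxylase, which makes L-DOPA, was called (5.0% higher, against 4.32% over all genes). Th read 6.61, 7.11 and 6.86 in RESTko arrays, against 5.27, 5.02 and 5.16 in RESTwt arrays (1.71, SE 0.14, 3.27-fold, adjusted p = 7.3e-07). The 3 RESTko arrays lay well clear of the 3 RESTwt arrays, whereas Chat, which makes acetylcholine, differed by -0.08 and Gad2, which makes GABA, by 0.28, and neither was called.

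Of 31 genes for calcium sensing, priming and membrane fusion at the synapse, 18 were higher and 0 lower (median 0.41). Cplx1, the complexin that clamps and then promotes fusion, read 7.52, 7.63 and 7.48 in RESTko arrays, against 5.27, 5.07 and 5.08 in RESTwt arrays (2.41, SE 0.08, 5.30-fold, adjusted p = 6.27e-12). No RESTko array came within a whole log2 unit of a RESTwt array. Snap25, a SNARE of the plasma membrane, differed by 1.02, Rims2, a scaffold of the active zone, by 1.12, Cadps, which primes dense-core granules, by 1.15, and Bsn, a large active-zone protein, by 0.63. Pclo, its relative, differed by 0.50 (adjusted p = 0.0417, and 0.246 without RESTwt array b). Without RESTko array a the count was 10 of 31. Among 21 proteins of the vesicle membrane itself 6 were higher and 0 lower, with a smaller median of 0.26. Rab3c, a vesicle GTPase, differed by 1.72, the vesicle glycoprotein Syp by 0.98 and the vesicle tether Syn1 by 0.80, while the vesicular glutamate transporter Slc17a6 stayed near the bottom of the scale in both groups (-0.13, not called).

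The cytoskeleton of axons gave the largest share among the neuronal lists that follow a cell structure. Of 30 genes 21 were higher and 0 lower (median 0.59), although the count was 12 without RESTwt array b. Ina, the neurofilament protein internexin, read 11.05, 10.76 and 10.70 in RESTko arrays, against 9.89, 9.14 and 9.62 in RESTwt arrays (1.28, SE 0.14, adjusted p = 1.17e-05). Stmn3, a stathmin that binds tubulin, read 9.66, 9.07 and 9.30 in RESTko arrays, against 8.27, 7.46 and 8.10 in RESTwt arrays (SE of the difference 0.16, adjusted p = 2.86e-05), and with the mean over its probe sets Stmn3 differed by 0.83. In both genes RESTwt array b was the lowest of the 6. The other neurofilament genes also rose, Nefh by 1.17, Nefl by 1.06 and Nefm by 0.86 (adjusted p = 0.0603 for Nefm without RESTwt array b), as did Crmp1, a mediator of semaphorin signals, by 1.16. Tubb3, the neuronal tubulin often used to stain new neurons, lies on chromosome 8 and differed by 0.16 (adjusted p = 0.535).

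Of 17 neuronal RNA-binding and splicing regulators 11 were higher and 0 lower (median 0.56), and the count was 7 without RESTko array a. Members of the CELF family of splicing regulators were among them, Celf6 by 1.32, Celf5 by 1.31 and Celf4 by 1.05. Celf6 read 6.70, 6.70 and 6.63 in RESTko arrays, against 5.67, 5.01 and 5.39 in RESTwt arrays (SE 0.14, adjusted p = 1.23e-05). Srrm3, which promotes inclusion of neuronal microexons, read 6.99, 6.84 and 6.96 in RESTko arrays, against 5.97, 5.70 and 5.84 in RESTwt arrays (1.09, SE 0.08, adjusted p = 1.95e-07), and its relative Srrm4 differed by 0.56 (adjusted p = 0.0154, and 0.0647 without RESTko array a). The groups were separate for both Celf6 and Srrm3. The calls of Rbfox3, which encodes the NeuN antigen (0.56), and of the splicing factor Nova1 (0.60) also ended without 1 array (adjusted p = 0.134 without RESTwt array b for Rbfox3 and 0.0989 without RESTko array a for Nova1).

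Channels and receptors rose in part. Of 29 sodium, calcium and pacemaker channel genes 8 were higher and 0 lower (median 0.23), of 27 potassium channel genes 4 and 0 (median 0.14, and 2 higher without RESTwt array b), and of 38 transmitter receptor genes 13 and 0 (median 0.18, and 8 without RESTwt array b). Hcn2, a pacemaker channel, read 6.75, 6.61 and 6.88 in RESTko arrays, against 5.41, 5.27 and 5.59 in RESTwt arrays (1.32, SE 0.12, adjusted p = 1.7e-06), and Hcn3 differed by 1.10. Chrnb2, the beta subunit of brain nicotinic receptors, read 7.55, 7.44 and 7.25 in RESTko arrays, against 5.50, 5.16 and 5.82 in RESTwt arrays (1.92, SE 0.14, adjusted p = 8.99e-08). Its usual partner Chrna4 differed by 0.99. The glycine receptor subunits Glra2 and Glra1 differed by 1.74 and 1.42, and the AMPA receptor subunit Gria2 by 1.31. For Gria2 the RESTko arrays read 7.84, 7.06 and 7.31, against 6.81, 5.30 and 6.17 in RESTwt arrays (SE 0.25, adjusted p = 0.00296). These groups did not overlap, but array a was the highest and array b the lowest in each of them. The largest difference on the potassium channel list was that of Kcnh2, which carries the rapid delayed rectifier current, at 0.73. Kcnk1, a potassium leak channel on chromosome 8 that is not on the list, was lower (-0.87, SE 0.11, adjusted p = 4.54e-05).

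Among 41 genes of axon guidance and adhesion 12 were higher (29.3%, against 4.32% over all genes) and 3 lower (7.32%, against 3.71%), with a median of 0.27. Without RESTwt array b 8 were higher. The atypical cadherin Celsr3, needed for long axon tracts, differed by 1.67, the repellent Slit1 by 1.11, the ephrin receptor Epha5 by 1.00 and the netrin receptor Unc5a by 0.87. Both semaphorins called, Sema3a (-0.57) and Sema3c (-0.47, adjusted p = 0.023, and 0.123 without RESTko array a), and their receptor Nrp1 (-0.65, on chromosome 8) were lower. Of 35 proneural and neuronal transcription factors 5 were higher and 0 lower (median 0.09), with 1 higher without RESTko array a and 0 in a fit of the NP arrays alone. They were led by Myt1l (1.07, adjusted p = 0.0326, and 0.203 without RESTwt array b) and Myt1 (0.95, adjusted p = 0.000983). Neurog1 and Neurog2, which start neurogenesis, were not called. The 12 markers of neurons are all members of the neuronal lists above, so they are not a separate readout. Of them 6 were higher and 0 lower (3 higher without RESTko array a). Their mean was 7.72 to 8.14 in RESTko arrays, against 7.02 to 7.68 in RESTwt arrays, the lowest being RESTwt array b. In bulk RNA a larger share of neurons and more RNA per cell cannot be told apart, and the part of either in these differences was not tested.

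**Figure D2:**
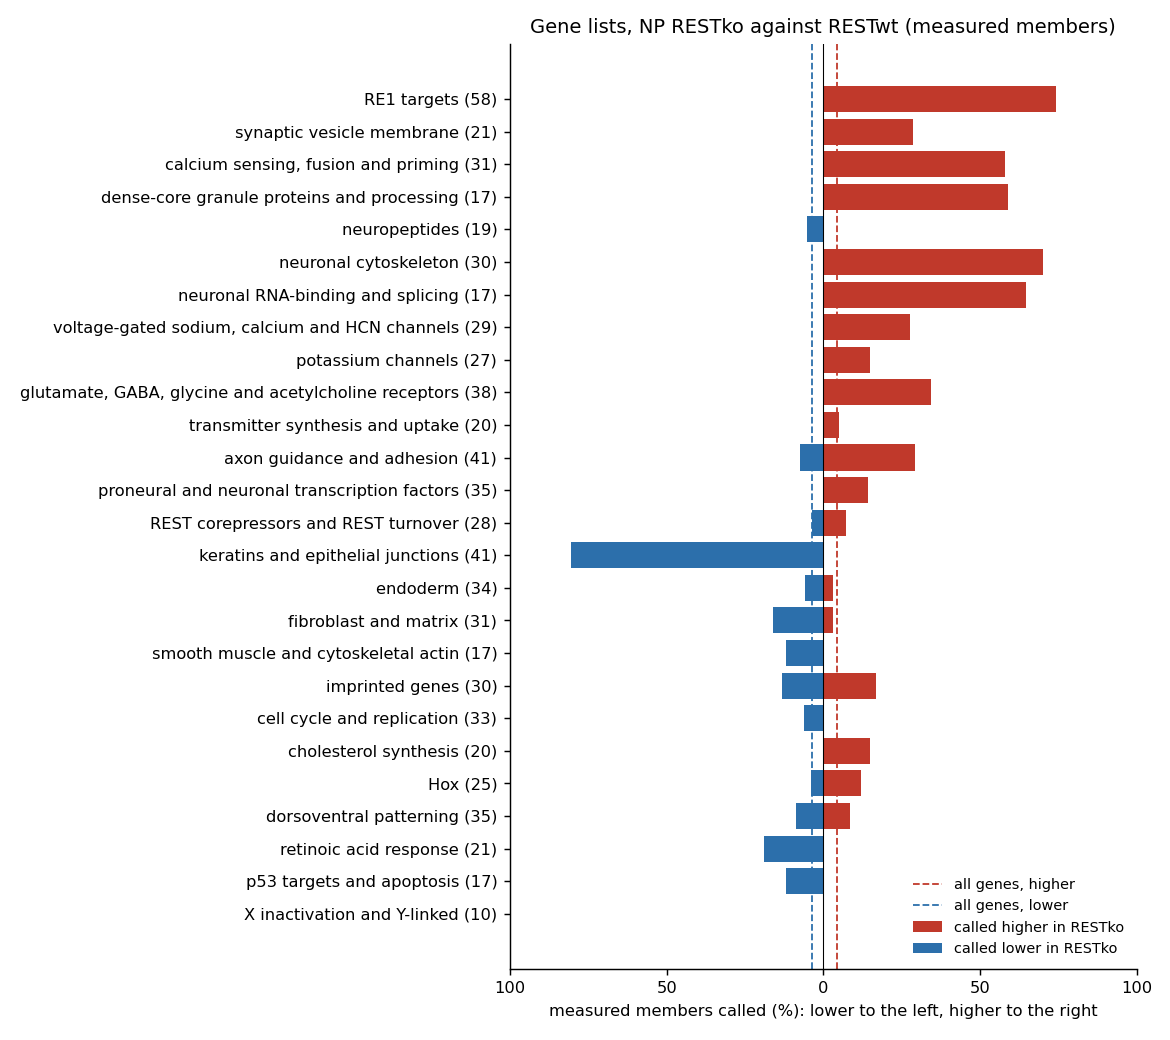
Share of the measured members of each gene list called higher (to the right, red) or lower (to the left, blue) in RESTko against RESTwt progenitors, with the number measured in brackets and the share over all genes as dashed lines (4.32% and 3.71%). The RE1 targets reach furthest to the right and the keratins and epithelial junctions furthest to the left.

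Several genes outside these lists were among the largest. Grb10, an imprinted adaptor that restrains growth factor signals, read 10.28, 10.24 and 10.16 in RESTko arrays, against 8.06, 7.69 and 7.65 in RESTwt arrays (2.43, SE 0.11, 5.39-fold, adjusted p = 2.63e-10). Lrp11, a membrane protein of the LDL receptor-related family, read 8.59, 8.49 and 8.63 in RESTko arrays, against 6.59, 6.84 and 6.64 in RESTwt arrays (1.88, SE 0.09, adjusted p = 3.13e-10). Slc7a14, a member of the cationic amino acid transporter family, read 6.51, 6.33 and 6.31 in RESTko arrays, against 4.73, 4.50 and 4.72 in RESTwt arrays (1.73, SE 0.11, adjusted p = 3.92e-08). In each of the 3 the gap between the groups exceeded the range within either. Hpgds, a prostaglandin D synthase best known from blood cells, differed by 1.69 (SE 0.11, adjusted p = 5.42e-08), with 0 of 8 blood or microglia markers called. Olig3, a dorsal patterning factor, differed by 1.74 and Hpca, the neuronal calcium sensor hippocalcin, by 1.68. The neuronal membrane proteins Slitrk1 (1.87), Sez6l2 (1.69) and Fstl5, a follistatin-like protein (2.01), and Iqsec3, an exchange factor of inhibitory synapses (1.79), were also higher, and RESTwt array b was the lowest for all 4.

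Of 58 measured genes listed from general knowledge as having a REST element reported near them, 43 were higher and 0 lower (median 0.84). This list, like the other gene lists here, was chosen with earlier results of these data known, so its count is a description only. The count ranged from 35 to 44 as single NP arrays were left out. Of the 15 that were not called 12 had a positive difference, and the lowest was Lhx3, a motor neuron factor, at -0.18. Nrsn1, a membrane protein of neurons, had the largest difference on the list and read 6.71 at the lowest in RESTko arrays, against 4.23 at the lowest in RESTwt arrays (2.48, SE 0.18, adjusted p = 1.22e-07). Nmnat2, an NAD-making enzyme that axons need to survive, read 7.75, 7.74 and 7.57 in RESTko arrays, against 5.48, 5.29 and 5.73 in RESTwt arrays (2.19, SE 0.11, adjusted p = 7.9e-10). Neither gene had overlapping groups. Syt4, a synaptotagmin of secretory vesicles, differed by 2.46, and Gdap1, a mitochondrial protein mutated in an inherited neuropathy, by 2.03. This list shares members with the neuronal lists. Without the shared genes 12 of 25 genes of sensing, priming and fusion (median 0.37), 5 of 11 dense-core granule genes (0.44), 13 of 21 cytoskeletal genes (0.59), 10 of 16 RNA-binding genes (0.54) 9 of 32 receptor genes (0.16), 5 of 24 sodium, calcium and pacemaker channel genes (0.22), 3 of 26 potassium channel genes (0.14) and 2 of 17 vesicle membrane genes (0.15) were higher and 0 lower. Among axon guidance genes 9 of 38 were higher and 3 lower (0.26), among transcription factors 5 of 34 were higher (0.10), and among 17 transmitter genes (0.01) and 17 neuropeptide genes (0.03) 0 were higher.

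The element itself was looked for in the promoter windows of RefSeq (GRCm38.p6), which run from 250 bases before to 50 after a transcript's start. RE1 was spelled as a left part TTCAGCACC and a right part GGACAGCGC with 2 free bases between them, read on both strands with at most 3 of the 18 letters differing. It was found in 32 of 15614 measured genes with a window (0.205%). It occurred in 12 of 676 genes called higher (1.78%), in 0 of 508 called lower and in 20 of 14430 not called (0.139%). Seen from the other side, 12 of the 32 genes with the element were called higher (37.5%) and 0 lower, with a median difference of 0.27, against 4.3% higher among genes without it. Most called genes had no match in this window, which says only that these letters are not there, and sites further off were not looked at. The 6 sites with the fewest differing letters among genes called higher are shown first, and then the exact match upstream of Lhx3, which was not called. Each is written on the strand that carries the element, with the element in capitals and up to 20 bases on each side, and all lie before the start.
Lhfpl5 (chr17:28575622-28575681, minus strand): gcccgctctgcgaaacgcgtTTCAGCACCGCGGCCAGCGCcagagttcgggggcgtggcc
Gria2 (chr3:80802969-80803028, plus strand): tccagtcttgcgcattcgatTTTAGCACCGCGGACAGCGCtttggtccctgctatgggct
Osbp2 (chr11:3774771-3774830, plus strand): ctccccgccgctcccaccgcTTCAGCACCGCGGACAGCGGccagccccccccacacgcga
Celsr3 (chr9:108825898-108825957, plus strand): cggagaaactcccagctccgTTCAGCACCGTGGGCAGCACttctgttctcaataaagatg
Hrh3 (chr2:180104554-180104613, plus strand): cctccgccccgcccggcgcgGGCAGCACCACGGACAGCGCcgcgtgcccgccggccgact
Syn1 (chrX:20921111-20921168, minus strand): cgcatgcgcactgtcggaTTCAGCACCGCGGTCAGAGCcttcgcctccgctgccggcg
Lhx3 (chr2:26208253-26208312, minus strand): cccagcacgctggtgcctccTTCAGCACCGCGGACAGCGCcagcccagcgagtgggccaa

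The genes behind these sites differed widely in size of change. Lhfpl5, a subunit of the hair cell mechanotransduction channel, has 1 differing letter 57 bases before its start and read 5.44, 5.49 and 5.38 in RESTko arrays, against 3.90, 3.90 and 4.13 in RESTwt arrays (1.46, SE 0.10, adjusted p = 5.42e-08). Hrh3, the histamine receptor that limits transmitter release, has 2 and read 6.14, 5.88 and 5.91 in RESTko arrays, against 4.65, 4.95 and 4.85 in RESTwt arrays (1.15, SE 0.11, adjusted p = 4.71e-06). Both pairs of groups were clearly apart. Osbp2, an oxysterol binding protein, has 1 differing letter and a difference of only 0.55 (SE 0.08, adjusted p = 0.000236). Lhx3, with the element spelled exactly 23 bases before its start, read 4.96, 4.89 and 4.74 in RESTko arrays, against 5.24, 5.04 and 4.84 in RESTwt arrays (-0.18, adjusted p = 0.581) and its groups overlapped. Ttc9b, with 1 differing letter, differed by 0.02 and Ogdhl, an oxoglutarate dehydrogenase of brain, with 2, by 0.27, and neither was called. The other genes called higher with the element were Scamp5 (0.45), Amer3 (0.85), Dner (0.79), Crip2 (0.65), Robo2 (0.64) and Chrm4 (0.45). Of these, Dner lost its call without RESTko array a (adjusted p = 0.138).

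Genes lower in RESTko progenitors were led by epithelial genes. Of 41 measured keratins, junction proteins and epithelial regulators, 33 were lower and 0 higher (median -0.79), and off chromosome 8 the count was 29 of 37 (median -0.78). The members of this list, too, were chosen with earlier results of these data known. The mean over the list was 6.19, 6.35 and 6.37 in RESTko arrays, against 7.02, 7.27 and 6.93 in RESTwt arrays, with no overlap. As single arrays were left out the count ran from 24, without RESTwt array b, to 33. Mal2, which sorts proteins to the apical membrane, read 4.21, 4.69 and 4.21 in RESTko arrays, against 6.63, 6.18 and 6.32 in RESTwt arrays (-2.01, SE 0.13, 4.02-fold lower, adjusted p = 2.33e-08). Krt19, a keratin of simple epithelia, read 8.41, 8.29 and 8.01 in RESTko arrays, against 9.49, 9.69 and 9.33 in RESTwt arrays (-1.27, SE 0.24, adjusted p = 0.00307). Both genes had separate groups. The tight junction claudins were lower too, Cldn4 (-1.10) and Cldn6 (-1.04), as were the uroplakin Upk1a of the bladder lining (-1.40) and Macc1, a regulator of the HGF receptor (-1.32).

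Further members of the list were called lower. The splicing factors Esrp1 (-0.95, adjusted p = 0.00767, and 0.0557 without RESTko array a) and Esrp2 (-1.05, on chromosome 8), the grainyhead factors Grhl2 and Grhl3 (-0.83 each), and the protease inhibitor Spint1 (-0.91) were among them. Krt8 and Krt18, which pair in simple epithelia, fell by 0.97 (adjusted p = 0.0354) and 0.87 (adjusted p = 0.0149), and lost their calls without RESTwt array b (adjusted p = 0.16 and 0.0901). Epcam, the usual surface marker of epithelial cells, was not called (-0.65, adjusted p = 0.104), although all RESTko arrays lay below all RESTwt arrays. The 11 markers of endoderm and epithelium are all members of the epithelial list or of the endoderm list that follows, so they are not a separate readout. The 4 called lower were Cdh1, Krt8, Krt18 and Krt19, and the 1 called higher was Gata4. The 11 averaged 6.93 to 7.02 in RESTko arrays, against 7.15 to 7.74 in RESTwt arrays, and their part in these differences was not tested. Of 34 endoderm genes 2 were lower, among them Foxa1, a pioneer factor of endoderm and epithelia (-1.28, adjusted p = 3.86e-06). Only 1, Gata4, was higher (0.72, adjusted p = 0.0311, and 0.181 without RESTko array a), and the list median was 0.17. The shares of this list, 5.88% lower and 2.94% higher, lay near the 3.71% and 4.32% over all genes.

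Large decreases also occurred outside the epithelial list. Cxcl15, a chemokine of lung epithelium, read 5.21, 4.67 and 4.64 in RESTko arrays, against 7.17, 6.98 and 6.87 in RESTwt arrays (-2.16, SE 0.15, 4.48-fold lower, adjusted p = 9.35e-08). Adh1, an alcohol dehydrogenase that can oxidise retinol, read 5.10, 4.45 and 5.18 in RESTko arrays, against 7.12, 6.47 and 6.20 in RESTwt arrays (-1.69, SE 0.21, adjusted p = 4.75e-05). The groups were apart for both, though Adh1 varied by most of a unit within RESTwt. Of 21 genes of retinoic acid response and metabolism 0 were higher and 4 lower (median -0.04), Adh1 with Aldh1a1 (-0.85), Rarg (-0.50) and Rdh10 (-0.39). The call of Aldh1a1, whose groups overlap, ended without RESTwt array b (adjusted p = 0.0658), as did that of Rdh10 (0.0651). Of 31 fibroblast and matrix genes 5 were lower (16.1%, against 3.71% over all genes) and 1 higher (3.23%, against 4.32%), with a median of -0.22. Off chromosome 8 the lower count was 4 of 30. The largest was that of the proteoglycan Dcn (-1.16, SE 0.16, adjusted p = 0.000199). All 9 markers of fibroblasts or mesenchyme are members of that list, and 3 of them were lower. Their mean was 5.69 to 6.31 in RESTko arrays, against 6.19 to 6.70 in RESTwt arrays, and their part was not tested. Of 7 endothelial markers 2 were lower (28.6%, against 3.71% over all genes), and 1 of the 2, Cdh5, lies on chromosome 8. The mean over the 7 was 4.93 at the lowest in RESTko arrays, against 5.47 at the lowest in RESTwt arrays. The highest RESTko mean was below the latter, so these groups did not overlap. The part of these markers was not tested either. Other genes in the 24 largest decreases were Gjb2, a connexin (-1.07), Gata3, a factor of surface ectoderm and T cells (-1.05), Gabrp, the GABA-A receptor subunit of epithelia (-1.13), Bche, butyrylcholinesterase (-1.27), Alx1, a homeobox factor of craniofacial mesenchyme (-1.24), Frem2, a basement membrane protein (-1.22), Wfdc2, a secreted protease inhibitor (-1.22), Sprr1a, a protein of the cornified envelope (-1.18), and Ifit2, an interferon-induced gene (-1.07).

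Small RNA genes were measured through 300 probe sets on microRNA precursors or their host transcripts, not on mature microRNAs. They are described after their values were seen. Of these, 4 were higher (1.33%) and 6 lower (2.0%), with a median of -0.02, so both shares were below those over all genes (4.32% and 3.71%). The precursors named next are descriptions of single genes. The higher ones were Mir124a-2 (0.54, adjusted p = 0.00122) and Mir124a-3 (0.38, adjusted p = 0.0209), genes of the main neuronal microRNA, with Mir100 (0.50) and Mir135b (0.33). Mir124a-2 read 6.16, 6.08 and 6.07 in RESTko arrays, against 5.82, 5.44 and 5.42 in RESTwt arrays, and its call held without any single array (adjusted p up to 0.00942), while those of Mir124a-3 and Mir100 ended without RESTwt array b (0.11 and 0.0577) and that of Mir135b without RESTko array c (0.16). Among the lower ones was Mir200b, of the family that keeps epithelial cells epithelial, at 3.08, 3.39 and 3.27 in RESTko arrays, against 3.96, 3.83 and 3.50 in RESTwt arrays (-0.52, adjusted p = 0.00639). Its values lay near the bottom of the scale in both groups. Its neighbour Mir200a (-0.33) and the members of the second cluster, Mir200c (-0.15) and Mir141 (0.10), were not called. The mature 3p strands of the family (RefSeq, GRCm38.p6), shown with the seed, bases 2 to 8, in capitals because the seed decides which transcripts are bound, fall into pairs. The pair Mir200b and Mir200c shares one seed, and the pair Mir200a and Mir141 shares another that differs by a single letter.
miR-200b-3p: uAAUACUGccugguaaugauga
miR-200c-3p: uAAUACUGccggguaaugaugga
miR-200a-3p: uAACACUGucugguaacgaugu
miR-141-3p: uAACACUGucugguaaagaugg

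A further 4 of the 6 lower precursors, Mir127 (-0.40), Mir329 (-0.55), Mir380 (-0.60) and Mir679 (-0.47), lie on chromosome 12 in the imprinted region between Dlk1 and Dio3. Each of these 4 calls ended when 1 array was left out, RESTko array b for Mir127 (adjusted p = 0.0851) and RESTko array a for Mir329 (0.259), Mir380 (0.142) and Mir679 (0.107). Dlk1, a paternally expressed Notch ligand relative, was higher (0.65, and adjusted p = 0.0635 without RESTwt array c) and Dio3, which inactivates thyroid hormone, lower (-0.53, and 0.178 without RESTwt array b), while the long RNAs Meg3 (0.08) and Rian (0.00) of the same region were not called. Of 30 imprinted genes in all, 5 were higher (16.7%, against 4.32% over all genes) and 4 lower (13.3%, against 3.71%), with a median of -0.01. Besides Grb10, Cdkn1c, a growth-restraining inhibitor of cyclin-dependent kinases, read 10.87, 10.54 and 10.78 in RESTko arrays, against 9.86, 9.35 and 9.21 in RESTwt arrays (1.26, SE 0.13, adjusted p = 4.94e-06), and Igf2r, which clears IGF2, differed by 0.72. All arrays of the groups were apart for Cdkn1c. Peg3, a paternally expressed zinc finger gene, was lower by 0.85.

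The lists that follow are to be read against 4.32% higher and 3.71% lower over all genes. Of 25 Hox genes 3 were higher (12%) and 1 lower (median 0.21), and of 35 dorsoventral patterning genes 3 were higher and 3 lower (8.57% each, median 0.04). Of 20 cholesterol synthesis genes 3 were higher (15%) and 0 lower (0.23), and of 33 cell cycle and replication genes 0 were higher and 2 lower (6.06%, median -0.10). Of 17 smooth muscle and actin genes 0 were higher and 2 lower (11.8%, median -0.22), as of 17 p53 target and apoptosis genes (11.8%, median -0.04). These counts moved as single arrays were left out, the higher ones between 2 and 6 for Hox, 1 and 6 for dorsoventral and 2 and 9 for cholesterol genes, and the lower ones between 1 and 2 for smooth muscle and 0 and 2 for p53 genes, the lowest count of each except the dorsoventral one (RESTko array b) occurring without RESTko array a. Hoxb5 (0.61) and Hoxb6 (0.54), which give caudal hindbrain and spinal identity, kept their calls without any single array. Ccnd1, cyclin D1, read 8.82, 8.85 and 8.85 in RESTko arrays, against 9.85, 9.62 and 9.66 in RESTwt arrays (-0.87, SE 0.13, adjusted p = 0.000308), and was the largest change among cell cycle genes. Its groups did not overlap, while the proliferation gene Mki67 was not called. Of 28 REST corepressors and REST turnover genes 2 were higher, the ubiquitin ligase subunit Btrc (0.30) and the kinase Csnk1e (0.25), and 1 was lower, the corepressor scaffold Sin3b (-0.41), which lies on chromosome 8. The calls of Btrc and Csnk1e ended without 1 array (adjusted p = 0.223 without RESTko array a for Btrc and 0.237 without RESTwt array b for Csnk1e). Of 18 pluripotency markers only Fgf4 was called (-0.33, adjusted p = 0.0266, and 0.17 without RESTko array a), and the X and Y list gave 0 calls among 10 genes, with Ddx3x at -0.01 and Eif2s3x at 0.05.

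Chromosome 8 was shifted as a whole and is described apart. Its median difference was -0.185, with 79.2% of its genes below 0, against medians of 0.000 to 0.027 on the other autosomes. Between 1.07% and 5.96% of genes were lower on each of those, against 30.9% on chromosome 8, which alone held 39.9% of all lower calls. The shift grew with the signal: with all genes put in 3 equal classes by mean signal, the median was -0.03 in the lowest class, -0.14 in the middle class and -0.31 in the highest. In the highest class 94.7% of 395 chromosome 8 genes were below 0 and 56.7% were called lower, against 1.28% on the other autosomes. It ran along the whole chromosome. With the genes of the highest class put in 5 equal blocks by position, the medians were -0.27, -0.29, -0.33, -0.34 and -0.30.

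Each array showed it. The median of chromosome 8 less that of the other autosomes, set against the mean of the 6 NP arrays, was -0.099, -0.105 and -0.113 in RESTko arrays, against 0.115, 0.087 and 0.106 in RESTwt arrays. The groups lay far apart, with a difference of -0.209, and an exact two-sided permutation test gave p = 0.1, the smallest that 3 against 3 arrays allow. The same measure differed by -0.178 between RESTko and RESTwt ES arrays and by -0.023 between RESTko and RESThet arrays of terminal neurons. From ES to NP the highest class of chromosome 8 genes stayed level in both genotypes (median step 0.01 in RESTko and 0.00 in RESTwt cells). From NP to TN it moved by -0.11 in RESTko cells, against -0.13 on the other autosomes, but by -0.35 between RESTwt progenitors and RESThet neurons, against -0.07 on the other autosomes. On this measure the groups were far apart where RESTko met RESTwt and close where RESTko met RESThet. Deletion of Rest cannot be told apart from any other difference between the cells of these labels.

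**Figure D3:**
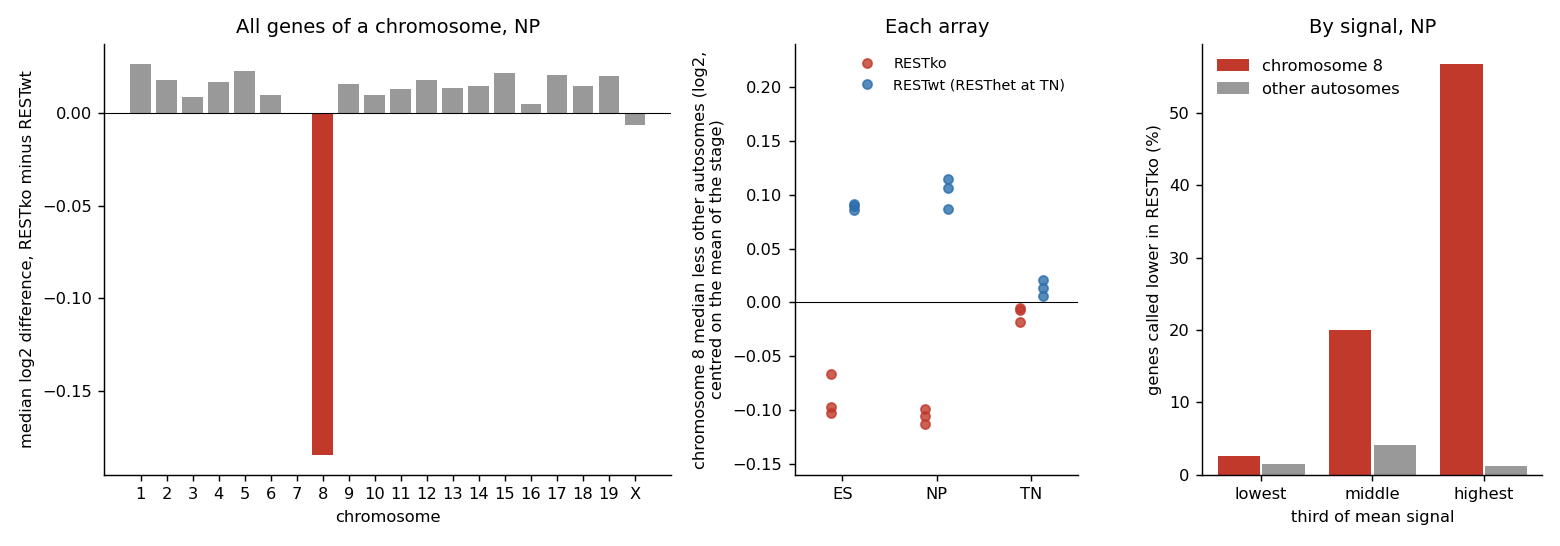
Left, the median log2 difference (RESTko minus RESTwt, NP) over all genes of each chromosome. Middle, for each array, the median of chromosome 8 less that of the other autosomes in log2 units, centred on the mean of the stage, with RESTko left of RESTwt or, at TN, of RESThet. Right, the percent of genes called lower in RESTko progenitors in each of 3 equal classes of mean signal. Chromosome 8 stands alone at -0.185, the groups are far apart at ES and NP and nearly meet at TN, and the share called lower reaches 56.7% in the highest class of chromosome 8.

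To find chromosome 8 genes that departed from their chromosome, its median NP difference over genes above the 30th percentile of signal, -0.24, was taken from the RESTko NP arrays and the fit repeated. Now 68 of the 955 genes were higher (7.12%) and 31 lower (3.25%). The same value was taken out for every gene, although the median shift was -0.03, -0.14 and -0.31 in the lowest, middle and highest class of signal. Genes of the lowest and middle classes were thus raised by more than their class was shifted, and those of the highest class by less. The part of this in the 2 counts was not tested. All 9 genes called higher before centring were among the 68, the other 59 had not been called, and all 31 had been called lower before. Values after centring that follow are each gene's difference less that median. Unc13a, which primes synaptic vesicles, read 7.97, 7.88 and 8.05 in RESTko arrays, against 7.10, 6.06 and 6.78 in RESTwt arrays, a difference of 1.32 before centring and 1.56 after it (adjusted p = 3.16e-05). With the mean over its probe sets in place of the brightest the difference before centring was 0.80 for Unc13a and 0.47, against 0.82, for Fam155a. Jph3, a neuronal junctophilin that couples the endoplasmic reticulum to the plasma membrane, read 6.55, 6.34 and 6.39 in RESTko arrays, against 5.42, 5.30 and 5.64 in RESTwt arrays, or 0.97 before and 1.21 after (adjusted p = 2.83e-07). The RESTko arrays were above the RESTwt arrays for both even with the chromosome as a whole lower. Fam155a, a subunit of the sodium leak channel complex, stood at 1.06 after centring, Spire2, an actin nucleator, at 1.03, Smpd3, a neutral sphingomyelinase, at 1.03, the P/Q calcium channel gene Cacna1a at 0.75 and Kbtbd11, a BTB and kelch domain protein, at 1.47.

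Of the 31 genes called below their chromosome, those given here had differences of -0.63 or more in size after centring, which the RIKEN gene 2610005L07Rik (-0.63) also had. Cdh3, P-cadherin, read 6.75, 6.96 and 7.13 in RESTko arrays, against 8.43, 8.44 and 8.09 in RESTwt arrays, a difference of -1.37 before and -1.13 after centring (adjusted p = 3.43e-05). Cdh1, E-cadherin, read 7.56, 8.11 and 8.11 in RESTko arrays, against 8.87, 9.47 and 8.89 in RESTwt arrays, or -1.15 before and -0.91 after (adjusted p = 0.0184). Neither gene had overlapping groups. Cmtm3, a membrane protein of the chemokine-like MARVEL family, stood at -0.96 after centring, Atp2c2, a calcium pump of the secretory pathway, at -0.93, Esrp2 at -0.81, the RNA-binding protein gene Rbpms at -0.72, Cdh5, the cadherin of endothelium, at -0.66 and Kcnk1, a potassium leak channel, at -0.63. Sin3b, by contrast, was not called after centring (-0.17, adjusted p = 0.211).

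The same comparison at the ES stage gives a measure of what was larger or smaller in progenitors. It called 1034 genes higher (5.19%) and 808 lower (4.05%) in RESTko ES cells. The test of the difference itself, the RESTko minus RESTwt value at NP less that at ES, called 461 genes positive (2.31%) and 509 negative (2.55%). Of the 828 genes higher in progenitors on the other autosomes, 203 were also higher at ES, which is 24.5% of them and 20.4% of the 994 higher at ES, and 224 were called positive in the test of the difference. Of the 425 lower in progenitors, 43 were also lower at ES (10.1% of them and 9.41% of the 457 lower at ES), and 53 were higher there. On chromosome 8, where the whole chromosome is shifted at both stages, 151 genes were lower at both (51.2% of those lower at NP and 60.4% of those lower at ES).

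Some neuronal genes were called higher in RESTko progenitors and not at ES, and the difference between stages passed its own test. Th averaged 6.86 ± 0.25 in RESTko and 5.15 ± 0.13 in RESTwt progenitors, and 4.65 ± 0.27 in RESTko and 4.69 ± 0.22 in RESTwt ES cells (SD, n = 3 each), a difference between stages of 1.75 (SE 0.20, adjusted p = 8.48e-05). Slitrk1 averaged 7.14 ± 0.21 in RESTko and 5.27 ± 0.54 in RESTwt progenitors, and 3.53 ± 0.20 in RESTko and 3.77 ± 0.14 in RESTwt ES cells (2.11, SE 0.26, adjusted p = 0.000144). Both genes sat near one level in ES cells of either genotype. Fstl5 (2.11) and Iqsec3 (1.79) had the same pattern, and Srgn (2.07, adjusted p = 0.0441) lost its call without 1 array (adjusted p = 0.114 without RESTko ES array b). Kbtbd11 turned round, at 6.33 ± 0.14 in RESTko and 5.10 ± 0.21 in RESTwt progenitors, and 4.59 ± 0.05 in RESTko and 6.50 ± 0.37 in RESTwt ES cells, a difference between stages of 3.13. Dnajc5g (1.77) and Ogdhl (1.86) were lower in RESTko ES cells and not called in progenitors.

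The 8 most negative differences between stages belonged to Anxa3, Tagln, Krt8, Scg3, Krt19, Krt18, Anxa1 and Igfbp3, of which 3 are keratins. Krt8 averaged 9.40 ± 0.04 in RESTko and 10.36 ± 0.24 in RESTwt progenitors, and 9.51 ± 0.47 in RESTko and 7.90 ± 0.68 in RESTwt ES cells (-2.57, SE 0.39, adjusted p = 0.000719). RESTko cells had close to the same level at both stages, above RESTwt cells at ES and below them at NP. Krt18 (-2.41) and Krt19 (-2.52) had the same pattern. The actin binding protein gene Tagln (-2.70) was also lower in RESTko progenitors (-1.21) and higher in RESTko ES cells (1.49), but averaged 5.62 ± 0.46 in RESTko progenitors and 7.70 ± 0.23 in RESTko ES cells. Over the epithelial list 28 of 41 genes were called negative in the test of the difference and 0 positive. The list averaged 6.30 ± 0.10 in RESTko and 7.07 ± 0.18 in RESTwt progenitors, and 7.04 ± 0.03 in RESTko and 6.76 ± 0.04 in RESTwt ES cells, where 12 members were higher and 0 lower. Anxa3 (-2.76) and Igfbp3 (-2.30) were higher at ES and not called at NP, and Anxa1 (-2.38) was called at neither stage and lost the call of the difference without 1 array (adjusted p = 0.065 without RESTwt ES array c). The NP result depended on the fit for Igfbp3 (adjusted p = 0.0558, but 0.0378 centred on the other autosomes, 0.0469 after quantile normalization, 0.046 without the dimmest genes and 0.0059 without RESTko array c) and for Anxa1 (0.086, but 0.0112 in the NP arrays alone). Scg3 was called higher at both stages but by less in progenitors (2.24, against 4.79 in ES cells), a difference between stages of -2.55 (SE 0.18, adjusted p = 5.15e-07), with RESTwt cells at 7.23 ± 0.33 in progenitors and 3.39 ± 0.11 at ES. The RE1 targets as a list held 25 higher and 0 lower at ES, and 12 of 58 were called positive and 3 negative in the test of the difference.

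**Figure D4:**
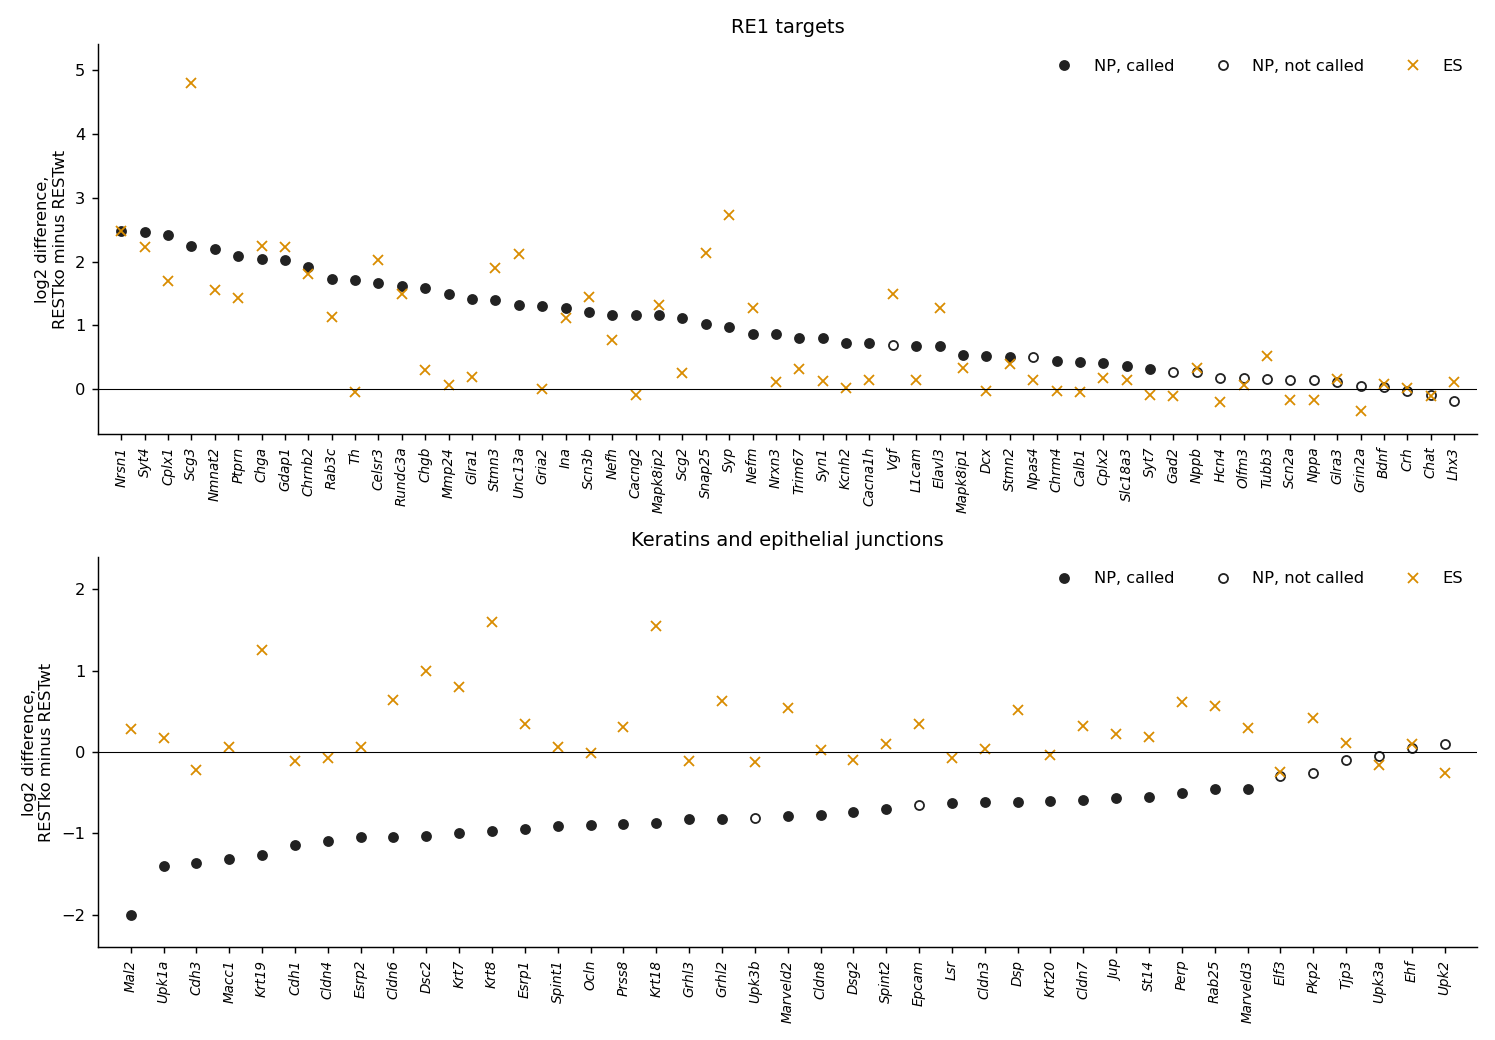
Log2 difference (RESTko minus RESTwt) of every measured RE1 target (upper panel) and every measured keratin or epithelial junction gene (lower panel), at NP as circles (filled where called, open where not) and at ES as crosses, ordered by the NP difference. The NP circles of the RE1 targets reach down to -0.18 and several lie far from their ES crosses, and the NP circles of the called epithelial genes are all below 0 while the crosses of Krt8, Krt18 and Krt19 are above 1.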

How the data were processed

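The 18 arrays of the platform that holds the 6 NP arrays were used, and the other 6 arrays of the series were not analysed here. The deposited values are log2 signals per probe set, made with oligo 1.14.0 per the submitters' processing notes, and how background and normalization were handled is not stated there. Probe sets were named from the platform annotation: of 35556, 21789 had a single symbol, 1621 several and 12146 none. Where 999 genes had several probe sets, the one with the highest mean was kept, and 19938 genes were tested. A model with the means of 6 groups over 18 arrays was fitted with limma 3.58.1 (lmFit and eBayes, R 4.3.3), with Benjamini-Hochberg adjustment over all genes. Every adjusted p in the text comes from this limma fit or from the same fit with the stated change. The difference between stages is the RESTko minus RESTwt contrast at NP less that at ES. For chromosome 8 a second fit took its median difference out of the RESTko arrays of NP. The genes named were drawn from Rest, the 24 largest called differences in each direction on the other autosomes among genes whose groups do not overlap (predicted genes, receptors of smell and small RNAs left out), the 8 largest on chromosome 8 after centring, the 8 largest differences between stages each way, and up to 5 called members of each list. Other genes, among them uncalled members and microRNA precursors, were named after their values were seen. The members and gene lists were chosen with earlier results of these data known. Deviations of same-letter NP arrays from their group means correlated at 0.487 for a, 0.411 for b and 0.0069 for c. Those between letters a and b correlated at -0.442 and -0.457, so arrays a and b shared a pattern across the groups and arrays c did not. The labels do not say what the letters mark, and the main fit has no term for them. The alternatives were limma on the NP arrays alone, a replicate block, quantile normalization, centring on the other autosomes, array weights, trended and robust variances, the mean over a gene's probe sets, a filter on dim genes, every probe set, and each array left out. Scripts were tested on simulated data.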

Additional observations from a re-analysis of the deposited data

Results flagged for a closer look

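The 16 genes with the largest called differences between stages, 8 in each direction, are set out here because the test of the difference (RESTko minus RESTwt at NP less that at ES, limma, adjusted over all genes) passed the threshold. Groups of 3 arrays are too small to test for a single outlying array. On the positive side stood Kbtbd11 (3.13), Slitrk1 (2.11), Fstl5 (2.11), Srgn (2.07), Ogdhl (1.86), Iqsec3 (1.79), Dnajc5g (1.77) and Th (1.75). On the negative side stood Anxa3 (-2.76), Tagln (-2.70), Krt8 (-2.57), Scg3 (-2.55), Krt19 (-2.52), Krt18 (-2.41), Anxa1 (-2.38) and Igfbp3 (-2.30). Kbtbd11 lies on chromosome 8, whose genes are shifted at both stages. Leaving out 1 ES array ended the call for Srgn (adjusted p = 0.114 without RESTko array b) and Anxa1 (adjusted p = 0.065 without RESTwt array c).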

How the results depend on the processing

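The count of 1602 genes called at NP was 549 with the 6 NP arrays fitted alone, with 280 higher and 154 lower on the other autosomes, and 25 chromosome 8 genes called after centring, against 99. It ranged from 872 to 1776 as single NP arrays were left out, the higher calls on the other autosomes from 437 to 1000, the lower calls from 211 to 438 and the chromosome 8 calls after centring from 44 to 110. Leaving out 1 array moved the RE1 targets called higher between 35 and 44, the epithelial genes called lower between 24 and 33, the median of chromosome 8 less that of the other autosomes between -0.22 and -0.20 (-0.27 with the dimmest 30% of genes left out) and the 970 differences between stages between 651 and 1136. With the replicate block the counts were 1879 at NP, 1126 between stages and 117 on chromosome 8 after centring. Under it Anxa1 (adjusted p = 0.000732) and Igfbp3 (0.00505) were also called lower at NP. Array weights gave 1537 differences between stages, and every probe set gave 65 chromosome 8 calls after centring. Centring on the other autosomes moved the share of higher calls there to 54.7%, against 66.1%. Of 136 named genes called, 29 lost the call without at least 1 NP array and 40 in the NP arrays alone, and no call was reversed. Small differences that were not called could change sign, as for Dnajc5g at NP (-0.10, and 0.03 without RESTwt array b). The causes were not tested.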
